A study of Homo sapiens with 12 samples.

Results

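The SLC25 family is the set of carrier proteins that move metabolites across the inner membrane of the mitochondrion. Its members were taken by gene name, as every name made of SLC25A and a number whose transcripts matched a reference transcript (class code =) or shared splice junctions with one (class code j). This gave 48 carriers of 56537 gene names, with 558 transcripts, of which 405 were of class = and 153 of class j. Family members with other symbols (UCP1, UCP2, UCP3, MTCH1 and MTCH2) were left out and are counted among other transporters below. The FPKM (fragments per kilobase of transcript, scaled to the mapped fragments of the library) of these transcripts was summed per carrier in each library. A summed FPKM above 0.5 in at least 3 of the 12 libraries was reached by 41 carriers, among 16680 names in all. The 7 carriers that stayed under this filter were SLC25A2, SLC25A18, SLC25A31, SLC25A34, SLC25A41, SLC25A47 and SLC25A52.

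The inner mitochondrial membrane is closed to most charged metabolites, and each SLC25 carrier opens it to a narrow set of substrates, usually by exchanging a molecule on one side for a molecule on the other. ADP/ATP and phosphate carriers feed the ATP synthase, dicarboxylate and aspartate/glutamate carriers link the tricarboxylic acid cycle with the cytosol and carry the reducing equivalents of the malate-aspartate shuttle, and further carriers bring in the coenzymes, nucleotides, amino acids and iron that mitochondria use. When oxygen is short, cells lower the use of the respiratory chain and rely more on glycolysis, so the traffic that these carriers serve is of interest in hypoxia.

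HCT116, an established human colorectal cancer cell line, was kept in 21% O2 (0 h) or held in 1% O2 for 1, 2 or 24 h. Poly(A) RNA was sequenced in 3 libraries at each time point, 12 in all, which the series describes as biological replicates. Every group is the same unmodified line, and only the time in low oxygen differs between the groups. Low oxygen began 24 h after plating. When the cells of 0 h were collected is not given in the sources used here, so at 24 h the effect of low oxygen and that of a longer culture cannot be told apart.

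The summed FPKM over all transcripts of class = or j was 641511 to 757481 in the 12 libraries, and 15285 to 16048 gene names were above 0.5 FPKM in a library. The depth of the libraries in reads was not analysed here, and precision is given by the spread between the 3 libraries of a time point. All 10 hypoxia check genes, CA9 and NDRG1 among them, were past a 2-fold rise at 24 h. The 5 epithelial markers summed to 1998 to 2820 FPKM. PTPRC, CD3E, PECAM1, CDH5, COL1A2 and DCN, defining markers of leukocytes, endothelium and fibroblasts, were at or near 0 in every library. CD68 and COL1A1 were the detected members of those lists and rose at 24 h, from 2.01 ± 0.27 to 10.2 ± 3.68 FPKM and from 1.92 ± 0.206 to 6.87 ± 1.67 FPKM (SD, n = 3), and their part in the results below was not tested. In bulk RNA, fewer cells with a transcript and less of it per cell cannot be told apart.

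Under normal oxygen, a pair of carriers made up most of the summed FPKM of the 48 names. The phosphate carrier SLC25A3 held 31.7% ± 0.96 and the ADP/ATP carrier SLC25A5 24.2% ± 0.2 of the summed carrier FPKM (SD, n = 3). Next among the 48 came SLC25A39, which supplies glutathione to mitochondria, with 8.14% ± 0.41, the ADP/ATP carrier SLC25A6 with 5.6% ± 0.2 and the folate carrier SLC25A32 with 2.93% ± 0.28. Outside these names, the family members MTCH2 and MTCH1 were at 128 ± 8.47 and 87.9 ± 3.82 FPKM at 0 h. The sum over all 48 carriers was 1779 ± 35.4 FPKM at 0 h, 1807 ± 51.3 at 1 h, and 1827 ± 37.9 at 2 h, and it was 1603 ± 106 at 24 h. These sums are given as values without a test, since the members were chosen.

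Changes from 0 h were estimated with limma on log2(FPKM + 0.5) over all 16680 names and all 12 libraries, and p-values were adjusted over all of those names. A carrier was called when its fold change exceeded 2 and its adjusted p was under 0.01, and counts at an adjusted p under 0.05 are given beside. The first pair of limits follows the methods of the study. On this scale the change of a gene with few FPKM is understated.

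No carrier passed the test at 1 h or 2 h in 1% O2, and 30 of the 41 did at 24 h. With the replicate number as a block, SLC25A36 (adjusted p = 0.0259, limma) and SLC25A25 (adjusted p = 0.0347) passed 0.05 at 2 h. At 1 h, 0 of 41 carriers were called and 0 had an adjusted p under 0.05 (limma), while 2 (4.88%) had an unadjusted p under 0.05, beside 4.61% of all names. Over all names, 0.006% were called at 1 h and 0.006% were past an adjusted p of 0.05. At 2 h the carrier counts were again 0 and 0, against 0.018% of all names called and 0.312% past an adjusted p of 0.05. At an unadjusted p under 0.05 there were 5 carriers (12.2%) at 2 h, beside 15.3% of all names. The median log2 fold change of the carriers was 0.02 at 1 h and -0.02 at 2 h, and that of all names was -0.01 and -0.02.

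At 24 h, 9 carriers were called. Those that fell included SLC25A10, SLC25A13, SLC25A46, SLC25A33, SLC25A32 and SLC25A15, and those that rose were SLC25A27 and SLC25A37. The 7 that fell were 17.1% of the 41 tested, beside 9.51% of all names called lower, and the 2 that rose were 4.88%, beside 8.76% of all names called higher. At an adjusted p under 0.05, 20 carriers (48.8%) fell, beside 30.3% of all names, and 10 (24.4%) rose, beside 25% of all names. The median log2 fold change was -0.29 over the carriers and -0.05 over all names, with carriers running from -1.79 to 1.19. When each library was rescaled to the same FPKM sum over transcripts of at least 300 bases, the called carriers were 1 higher and 9 lower, and with median-of-ratios scaling they were 3 higher and 7 lower.

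**Figure D1:**
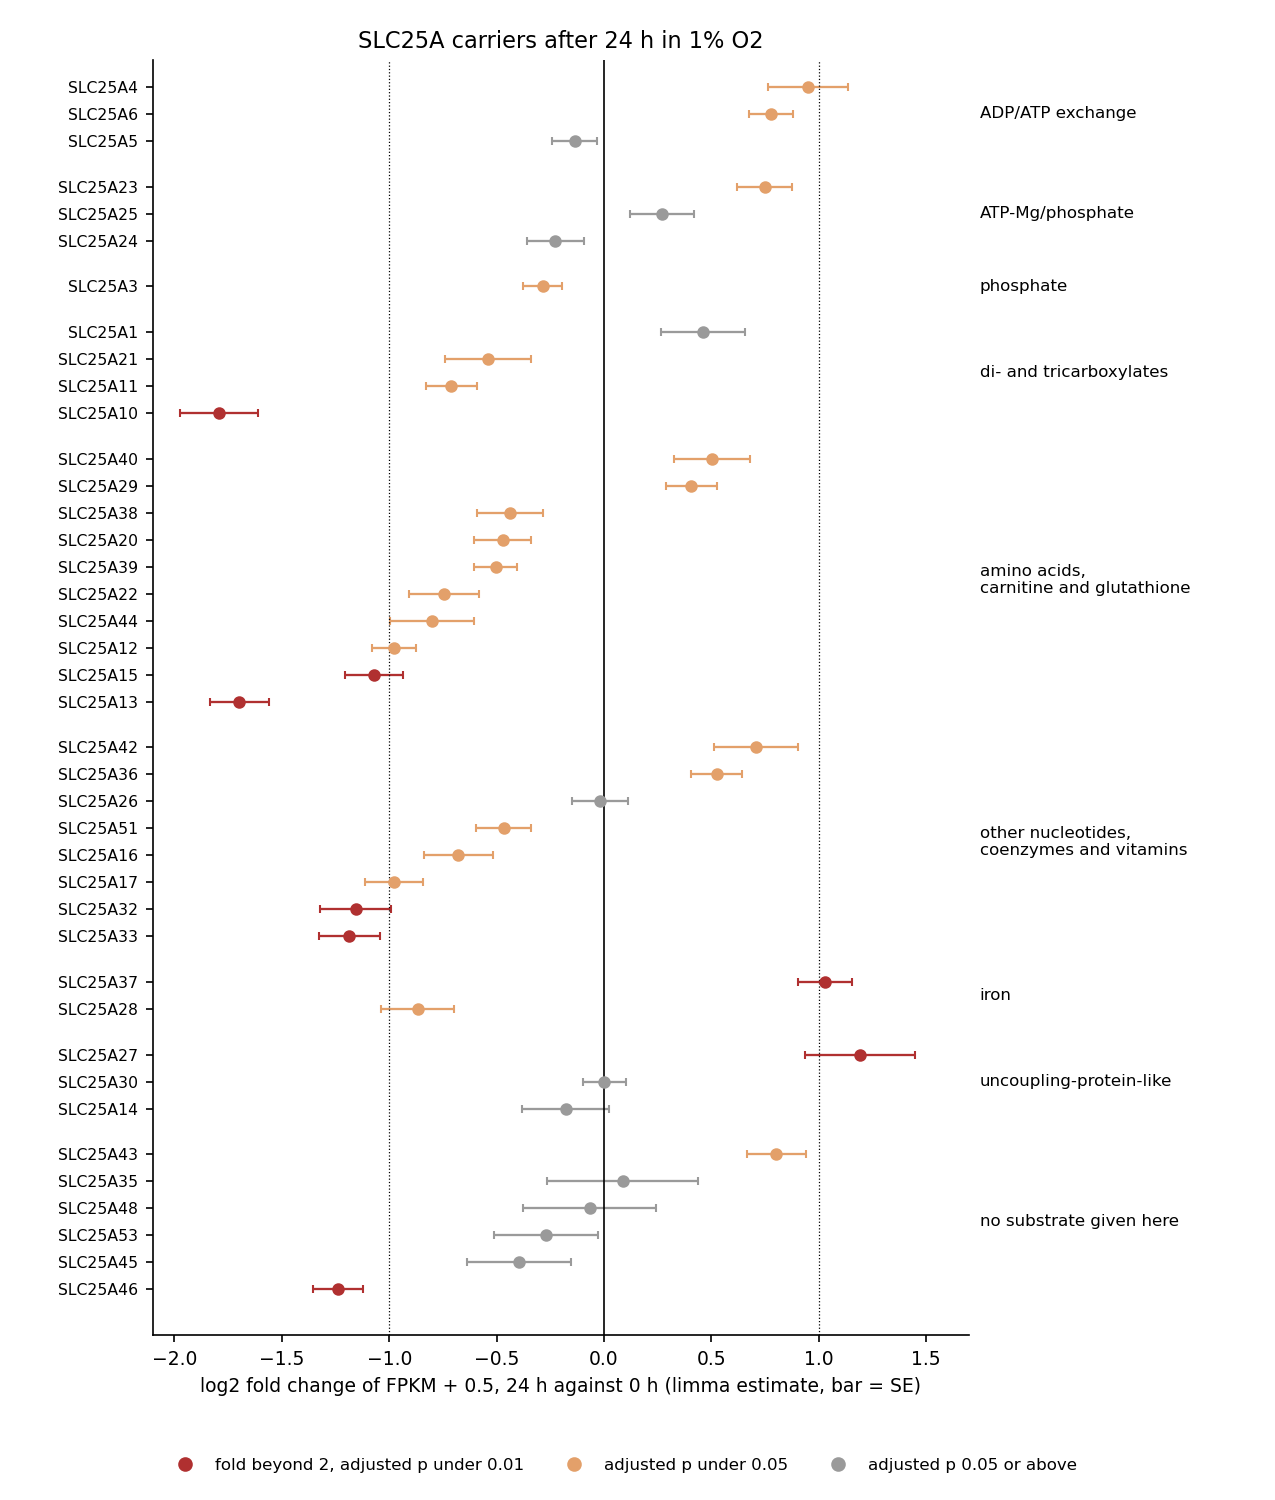
log2 fold change of FPKM + 0.5 at 24 h against 0 h for 40 of the 41 tested carriers, grouped by substrate (limma estimate over 3 libraries a group, bars are standard errors, dotted lines mark a 2-fold change). Red marks the 8 called carriers shown, orange the others with an adjusted p under 0.05 and grey those at or above it, and the 2 groups with the most carriers on the left, amino acids and coenzymes, each hold 2 orange carriers on the right.

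The ADP/ATP carriers exchange mitochondrial ATP for cytosolic ADP. Of their 4 isoforms 3 were tested, and 2 of these rose and 0 fell at 24 h, where 25% of all names rose and 30.3% fell. SLC25A5 (ENSG00000005022, chromosome X, 118602385 to 118605359, GRCh37), the main isoform here, was measured at 443, 421 and 428 FPKM at 0 h and at 453, 401 and 330 FPKM at 24 h. These ranges overlap, and the difference did not pass the test (log2 fold change -0.14 ± 0.10 SE, adjusted p = 0.285, limma). SLC25A6 (ENSG00000169100, chromosome X, 1505045 to 1511006), the ubiquitous isoform next in level, was at 101, 101 and 96.2 FPKM at 0 h, 109, 111 and 118 FPKM at 2 h and 189, 170 and 156 FPKM at 24 h. All 24 h libraries lay above all others, and SLC25A6 rose at 24 h (log2 fold change 0.78 ± 0.10 SE, adjusted p = 5.79e-05, limma). SLC25A4 (ENSG00000151729, chromosome 4, 186064420 to 186071536), best known from heart and muscle, had 12.6, 16.5 and 18.8 FPKM at 0 h and 36.8, 29.9 and 26.8 FPKM at 24 h. Its 24 h libraries were again the highest of the 12, and it rose by a log2 fold change of 0.95 ± 0.19 SE (adjusted p = 0.000978, limma), just short of a 2-fold call. SLC25A31, the germ-line isoform, stayed under the filter.

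The sum of the ADP/ATP carriers was 546 ± 9.51 FPKM at 0 h and 597 ± 83.2 FPKM at 24 h (SD, n = 3), and its make-up shifted. SLC25A5 supplied 78.8% ± 0.71 of that sum at 0 h, 78.0% ± 2.19 at 1 h and 77.7% ± 1.16 at 2 h, and 66.0% ± 1.32 at 24 h. SLC25A6 supplied 18.2% ± 0.54 at 0 h and 28.8% ± 1.32 at 24 h, and SLC25A4 2.93% ± 0.61 and 5.21% ± 0.22. The ADP/ATP carriers are close paralogs with processed pseudogene copies, so how reads were divided between them is uncertain.

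**Figure D2:**
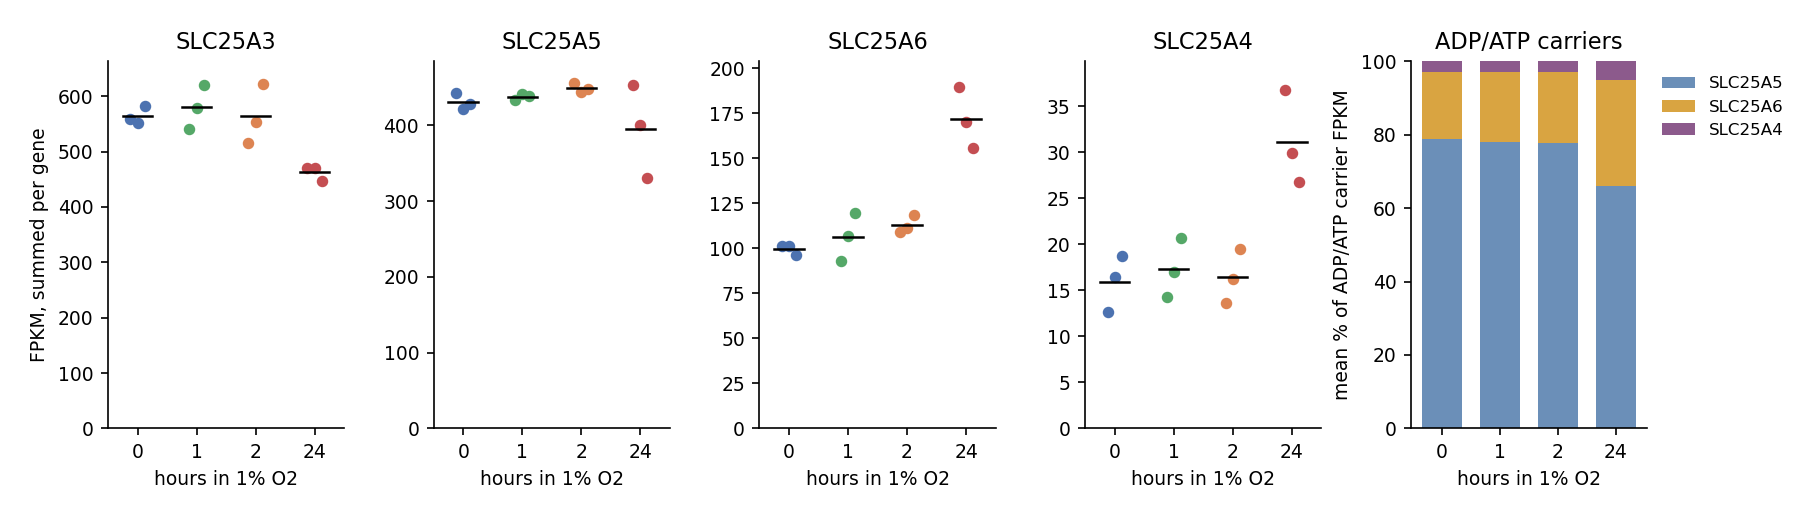
Summed FPKM of the phosphate carrier SLC25A3 and of the ADP/ATP carriers SLC25A5, SLC25A6 and SLC25A4 in each library (dots, replicates 1 to 3 from left to right; line, mean of 3) at 0, 1, 2 and 24 h in 1% O2, and the mean share of each ADP/ATP carrier in their sum (stacked bars, percent). SLC25A6 and SLC25A4 lie above all earlier libraries at 24 h, and the share of SLC25A5 is 66.0% there beside 78.8% at 0 h.

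Since the 3 isoforms differ in their course, the 250 bases before the start of one coding transcript of each are shown, from GRCh37 with the start site of GENCODE 44. Capitals mark ACGTG or GCGTG on either strand, the letters at the core of the element bound by hypoxia-inducible factors.
SLC25A4 before ENST00000281456 (chr4:186064170-186064419, plus strand): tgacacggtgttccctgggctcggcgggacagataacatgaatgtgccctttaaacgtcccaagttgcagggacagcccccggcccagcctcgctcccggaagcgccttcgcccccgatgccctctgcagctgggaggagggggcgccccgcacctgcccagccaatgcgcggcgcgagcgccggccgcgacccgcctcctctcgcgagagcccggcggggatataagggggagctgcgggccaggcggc
SLC25A5 before ENST00000317881 (chrX:118602157-118602406, plus strand): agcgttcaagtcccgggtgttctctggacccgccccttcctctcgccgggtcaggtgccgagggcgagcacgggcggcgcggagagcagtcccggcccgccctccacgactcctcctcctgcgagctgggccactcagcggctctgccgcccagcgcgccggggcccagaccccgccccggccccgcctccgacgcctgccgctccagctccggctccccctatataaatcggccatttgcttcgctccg
SLC25A6 before ENST00000381401 (chrX:1511007-1511256, minus strand): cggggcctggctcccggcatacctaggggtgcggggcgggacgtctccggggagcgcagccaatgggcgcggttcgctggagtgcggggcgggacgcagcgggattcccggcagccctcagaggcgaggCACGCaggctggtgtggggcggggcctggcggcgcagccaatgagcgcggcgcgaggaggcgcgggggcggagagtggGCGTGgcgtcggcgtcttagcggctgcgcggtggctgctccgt
The 250 bases before SLC25A6 hold these letters at 2 places, 121 and 43 bases before the start, and those before SLC25A4 and SLC25A5 at 0.  In RefSeq promoters (GRCh38.p14, 250 bases before to 50 after a start), the letters stood in 48.5% of 34961 promoters, and 52.5% of 27195 genes had them in at least 1 promoter. Of 40 carriers with an entry, 34 (85%) had them. By direction at 24 h, these were 7 of 9 carriers that rose, 16 of 17 that fell and 7 of 9 that did not pass the test. Such letters are frequent in windows of this length, and a match is a description and no binding site.

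The phosphate carrier SLC25A3 (ENSG00000075415, chromosome 12, 98987369 to 99000157), which brings in phosphate for ATP synthesis, had the highest level of the family. It was at 558, 552 and 582 FPKM at 0 h and at 470, 471 and 447 FPKM at 24 h. The 24 h libraries were the lowest of the 12, and the fall was small (log2 fold change -0.29 ± 0.09 SE, adjusted p = 0.0194, limma). The ATP-Mg/phosphate carriers adjust the adenine nucleotide content of the matrix in response to calcium. SLC25A23 was at 23.1, 23.1 and 26.1 FPKM at 0 h and at 40.2, 38.9 and 43.4 FPKM at 24 h, with no overlap. It rose (log2 fold change 0.75 ± 0.13 SE, adjusted p = 0.000357, limma). Its paralogs SLC25A24 and SLC25A25 did not pass the test at 24 h (adjusted p = 0.166 and 0.144), and SLC25A41, whose transcripts lie in the same merged locus as SLC25A23, stayed under the filter.

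Of the 4 carriers of di- and tricarboxylates, 3 fell and 0 rose at 24 h, where 30.3% of all names fell and 25% rose. SLC25A10 (ENSG00000183048, chromosome 17, 79670401 to 79688046), which exchanges malate and succinate for phosphate, was at 28.7, 27.3 and 28.4 FPKM at 0 h, at 24.8, 25.2 and 27.4 FPKM at 2 h and at 10.4, 5.33 and 8.38 FPKM at 24 h. The 24 h libraries lay far below all others, and SLC25A10 fell (log2 fold change -1.79 ± 0.18 SE, adjusted p = 7.94e-06, limma). It shares a merged locus with HGS and MRPL12. MRPL12, a mitochondrial ribosomal protein gene, went from 223 ± 13.4 to 78.1 ± 13.3 FPKM and fell too (log2 fold change -1.52 ± 0.12 SE, adjusted p = 1.08e-06, limma), and HGS fell by 0.28 on this scale (adjusted p = 0.0294, limma).

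SLC25A11, which exchanges 2-oxoglutarate for malate in the malate-aspartate shuttle, was at 29.3, 31.2 and 33.2 FPKM at 0 h and at 18.0, 18.5 and 20.2 FPKM at 24 h. The ranges did not overlap, and it fell (log2 fold change -0.71 ± 0.12 SE, adjusted p = 0.000325, limma). SLC25A21, the oxodicarboxylate carrier, fell by 0.54 on the log2 scale at a level of 2.33 ± 0.665 FPKM at 0 h, with ranges that overlap, and passed in only 8 of 17 alternative settings (adjusted p up to 0.268, limma). SLC25A1, which exports citrate for fatty acid synthesis, was the exception. It had 30.8, 34.6 and 41.2 FPKM at 0 h and 54.6, 45.8 and 46.4 FPKM at 24 h, a log2 fold change of 0.46 ± 0.20 SE that missed the threshold (adjusted p = 0.0633, limma) although all 24 h libraries lay above those at 0 h.

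All 10 tested carriers of amino acids, carnitine and glutathione passed an adjusted p of 0.05 at 24 h, 8 of them lower, beside 30.3% of all names, and 2 higher, beside 25%, and the median log2 fold change was -0.63. Of these, SLC25A40, SLC25A38, SLC25A29 and SLC25A22 passed in 9, 13, 15 and 16 of 17 alternative settings. The pair of aspartate/glutamate carriers, which serve the malate-aspartate shuttle, fell together. SLC25A13, the isoform of liver and many other tissues (ENSG00000004864, chromosome 7, 95749532 to 95951459), was at 8.98, 7.79 and 9.23 FPKM at 0 h and at 1.94, 2.29 and 2.79 FPKM at 24 h. All 24 h libraries were under all others, and the log2 fold change was -1.70 ± 0.14 SE (adjusted p = 1.49e-06, limma). SLC25A12, the isoform of brain and muscle, was at 11.7, 12.2 and 11.5 FPKM at 0 h and at 5.59, 6.34 and 5.29 FPKM at 24 h. It was just short of a 2-fold call (log2 fold change -0.98 ± 0.10 SE, adjusted p = 8.67e-06, limma).

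The ornithine carrier SLC25A15, part of the urea cycle in liver and of arginine metabolism elsewhere, was at 12.8, 13.8 and 14.3 FPKM at 0 h and at 5.07, 5.97 and 7.92 FPKM at 24 h. It fell with no overlap (log2 fold change -1.07 ± 0.14 SE, adjusted p = 4.08e-05, limma). Without replicate 1 of 24 h its log2 fold change was -0.94, short of the 2-fold line. The glutamate carrier SLC25A22 was at 45.4, 38.1 and 31.2 FPKM at 0 h and at 24.3, 19.0 and 24.1 FPKM at 24 h, and fell (log2 fold change -0.75 ± 0.16 SE, adjusted p = 0.00196, limma), but over transcripts of class = alone the log2 fold change was -0.32 with an adjusted p of 0.213. SLC25A44, a carrier of branched-chain amino acids, went from 7.38, 6.58 and 6.53 FPKM to 5.31, 2.64 and 3.57 FPKM. Its 24 h libraries were lower but more scattered than those at 0 h (log2 fold change -0.80 ± 0.20 SE, adjusted p = 0.00402, limma).

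SLC25A39, the glutathione carrier with the highest level after SLC25A3 and SLC25A5, was at 155, 142 and 137 FPKM at 0 h and at 117, 94.7 and 95.1 FPKM at 24 h. It fell by 0.50 on the log2 scale (SE 0.10, adjusted p = 0.000993, limma). SLC25A40, its close paralog, rose from 10.2 ± 2.21 to 14.6 ± 2.86 FPKM (log2 fold change 0.51 ± 0.18 SE, adjusted p = 0.0289, limma), with ranges that overlap. SLC25A20, the carnitine/acylcarnitine carrier of fatty acid oxidation, and SLC25A38, the glycine carrier of haem synthesis, fell by 0.47 and 0.44 on the log2 scale. SLC25A29, a carrier of basic amino acids, rose by 0.41. SLC25A2 and SLC25A18, the second ornithine and the second glutamate carrier, were at or near 0 FPKM throughout.

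Of 9 tested carriers of other nucleotides, coenzymes and vitamins, 6 fell and 2 rose at 24 h, beside the same 30.3% and 25% of all names. Their median log2 fold change was -0.68. The sum over all 10 members, with SLC25A52 included, went from 155 ± 14.0 FPKM at 0 h and 172 ± 21.0 FPKM at 2 h to 99.5 ± 4.72 FPKM at 24 h. SLC25A33, a carrier of pyrimidine nucleotides, was at 8.37, 6.79 and 6.78 FPKM at 0 h and at 2.73, 3.26 and 2.79 FPKM at 24 h. It fell (log2 fold change -1.19 ± 0.14 SE, adjusted p = 2.45e-05, limma), but over transcripts of class = alone, which hold a small share of it, the log2 fold change was -0.60 with an adjusted p of 0.26.

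SLC25A32, a carrier of folate and the fifth in level of the 48, was at 59.1, 49.2 and 48.5 FPKM at 0 h, 69.5, 59.7 and 50.3 FPKM at 2 h and 21.0, 23.2 and 25.3 FPKM at 24 h. All 24 h libraries lay below all earlier ones (log2 fold change -1.16 ± 0.16 SE, adjusted p = 9.35e-05, limma). SLC25A17, which sits in the membrane of peroxisomes and carries coenzyme A, FAD and NAD, went from 20.0, 16.9 and 16.6 FPKM to 9.64, 9.21 and 7.60 FPKM. It fell with no overlap and just short of a 2-fold call (log2 fold change -0.98 ± 0.13 SE, adjusted p = 6.9e-05, limma). SLC25A51, the NAD carrier, fell by 0.47 on the log2 scale. It shares its merged locus with 6 other names. Of these, TOMM5, EXOSC3 and RP11-613M10.9 fell (log2 fold change -1.43, -1.36 and -1.10), SHB rose (1.41), and FBXO10 and RP11-613M10.8 did not pass.

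Both carriers linked to coenzyme A in the inner membrane were measured, and they went apart. SLC25A16 was at 3.76, 3.78 and 3.96 FPKM at 0 h and at 1.78, 1.98 and 3.00 FPKM at 24 h, and fell (log2 fold change -0.68 ± 0.16 SE, adjusted p = 0.00333, limma). It shares its merged locus with the helicase gene DNA2, which fell as well (log2 fold change -1.08 ± 0.12 SE). SLC25A42 was at 3.14, 1.90 and 3.32 FPKM at 0 h and at 5.38, 4.36 and 4.58 FPKM at 24 h, and rose (log2 fold change 0.71 ± 0.20 SE, adjusted p = 0.00871, limma). SLC25A36, a pyrimidine nucleotide carrier and paralog of SLC25A33, rose by 0.52 on the log2 scale (SE 0.12, adjusted p = 0.00247, limma) while SLC25A33 fell. SLC25A26, which brings in S-adenosylmethionine, did not pass the test (log2 fold change -0.02, adjusted p = 0.927).

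**Figure D3:**
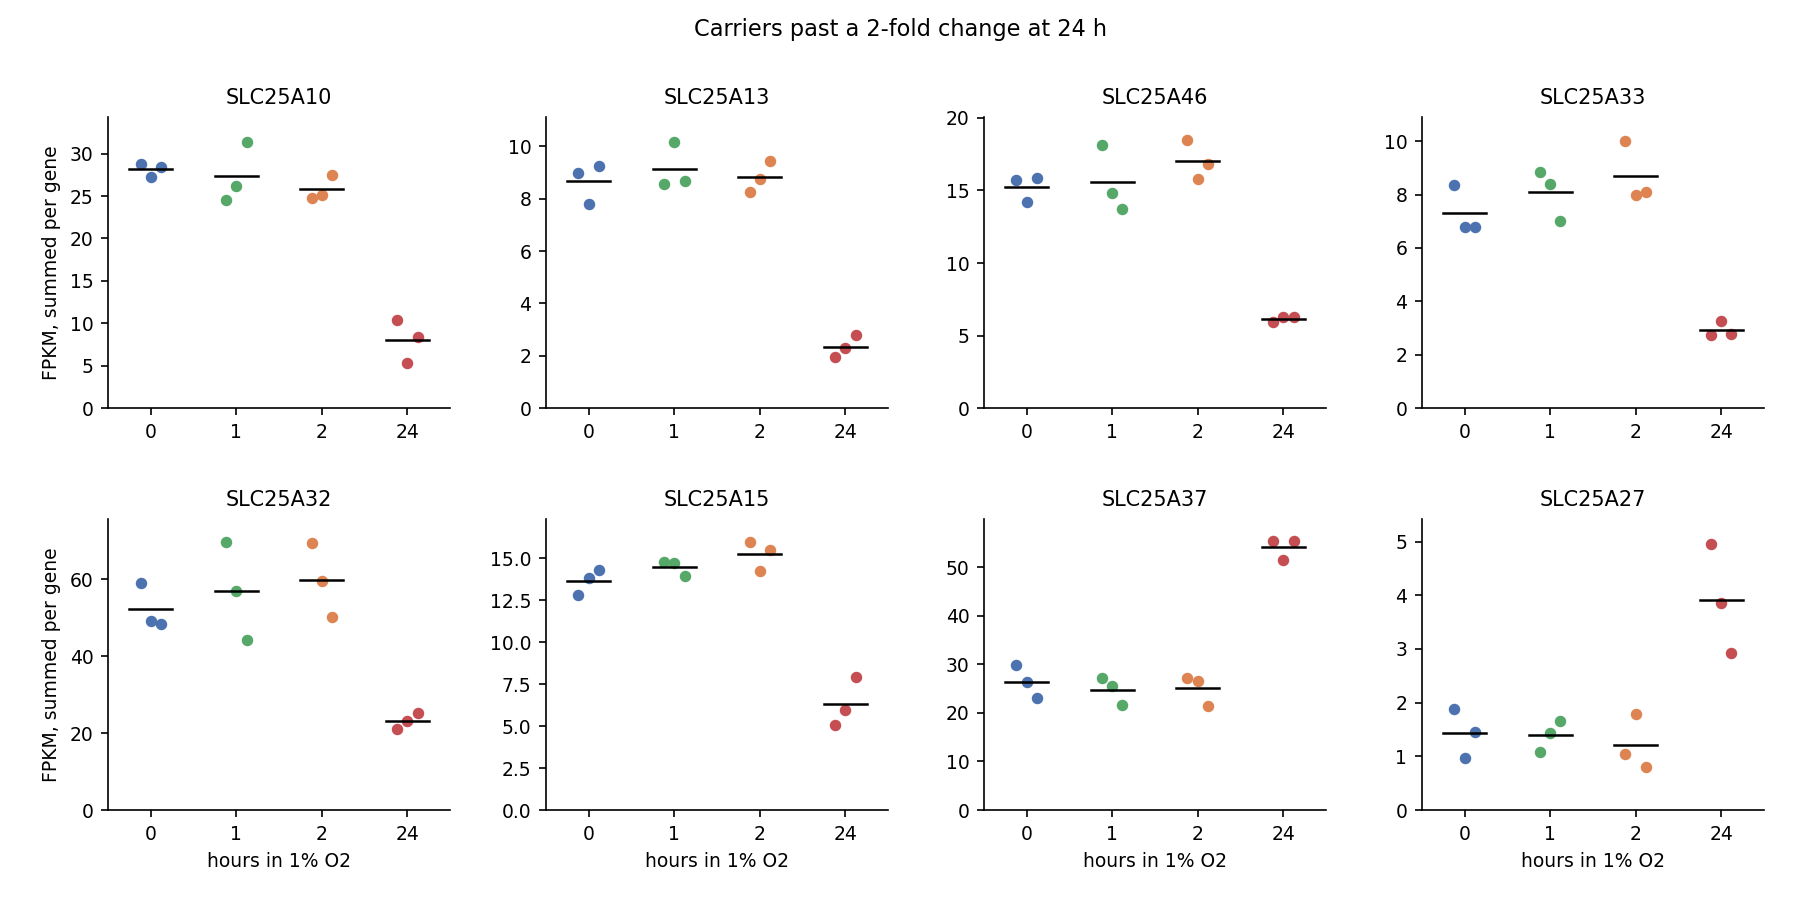
Summed FPKM of 8 of the 9 carriers past a 2-fold change at 24 h, in each library (dots, replicates 1 to 3 from left to right; line, mean of 3) at 0, 1, 2 and 24 h in 1% O2. In each panel the 24 h libraries lie apart from those at 0, 1 and 2 h, lower in 6 panels and higher in those of SLC25A37 and SLC25A27.

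The mitoferrins bring iron into the matrix for haem and iron-sulphur clusters, and the pair moved in opposite directions. SLC25A37 (mitoferrin-1; ENSG00000147454, chromosome 8, 23386469 to 23432976) was at 29.8, 26.3 and 23.0 FPKM at 0 h, at 27.2, 26.6 and 21.5 FPKM at 2 h and at 55.3, 51.5 and 55.4 FPKM at 24 h. It rose with no overlap (log2 fold change 1.03 ± 0.13 SE, adjusted p = 3.19e-05, limma), and the call was lost when each library was rescaled to the same sum (0.97) or without replicate 3 of 0 h (0.94). SLC25A28 (mitoferrin-2) was at 24.3, 26.2 and 21.2 FPKM at 0 h, at 18.3, 20.6 and 12.5 FPKM at 2 h and at 14.0, 14.1 and 10.7 FPKM at 24 h. It fell at 24 h (log2 fold change -0.87 ± 0.17 SE, adjusted p = 0.000952, limma). Its 1 h libraries, at 20.5, 20.8 and 19.5 FPKM, and its 2 h libraries lay below those at 0 h. Neither of these times passed the test (adjusted p = 0.996 at 1 h and 0.215 at 2 h, limma). At 2 h, 13.1% of all names lay below 0 h in the same way.

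The rise of SLC25A37 lay on transcripts that are typed as noncoding. Its most abundant transcript, a retained-intron form of 3404 bases (ENST00000518881), went from 11.99, 10.1 and 6.87 FPKM at 0 h to 19.6, 21.7 and 23.8 FPKM at 24 h. A form typed for nonsense-mediated decay (ENST00000290075) went from 6.49 ± 0.704 to 14.0 ± 1.58 FPKM. The coding form ENST00000519973 was at 2.45, 2.08 and 1.25 FPKM at 0 h and at 3.28, 1.13 and 0.652 FPKM at 24 h, and these ranges overlap. SLC25A4 had a similar make-up, with 83.2% ± 1.6 of its FPKM at 0 h and 84.9% ± 1.2 at 24 h on ENST00000491736, typed for nonsense-mediated decay. Its coding form ENST00000281456 was at 2.33, 2.55 and 3.07 FPKM at 0 h and at 5.11, 4.57 and 4.36 FPKM at 24 h, with no overlap. These types come from the nearest reference transcript of a later annotation and not from a reading frame in the assembled form.

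Of the 3 carriers akin to uncoupling proteins, 1 passed the test at 24 h, where 25% of all names rose and 30.3% fell. SLC25A27 (UCP4) was at 1.89, 0.965 and 1.44 FPKM at 0 h and at 4.96, 3.86 and 2.92 FPKM at 24 h. It rose from a low level (log2 fold change 1.19 ± 0.26 SE, adjusted p = 0.00179, limma), and the call was lost without replicate 2 of 0 h (adjusted p = 0.0103) and over transcripts of class = alone (adjusted p = 0.0223). Its paralogs SLC25A14 and SLC25A30 did not pass the test (adjusted p = 0.481 and 0.994). Among 6 tested carriers without a substrate given here, 1 fell and 1 rose, beside the same 30.3% and 25% of all names. SLC25A46, an outer-membrane protein tied to mitochondrial fission, was at 15.8, 14.2 and 15.9 FPKM at 0 h and at 5.93, 6.28 and 6.29 FPKM at 24 h. It fell with little spread (log2 fold change -1.24 ± 0.12 SE, adjusted p = 4.34e-06, limma). SLC25A43 was at 5.29, 6.92 and 6.76 FPKM at 0 h and at 11.6, 10.8 and 11.7 FPKM at 24 h, and rose (log2 fold change 0.80 ± 0.14 SE, adjusted p = 0.000348, limma). The other 4 tested members of this group, SLC25A35, SLC25A45, SLC25A48 and SLC25A53, lay under 2 FPKM on average and did not pass.

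Although no carrier passed at 2 h without the block, the libraries of 8 carriers at 2 h all lay above those at 0 h, 19.5% of the 41, beside 12.2% of all names. Those of 2 carriers lay below, 4.88%, beside 13.1% of all names. SLC25A36 was the highest of them in fold change, with 17.8, 15.3 and 16.8 FPKM at 0 h, 20.1, 16.8 and 15.96 FPKM at 1 h and 29.6, 24.0 and 23.7 FPKM at 2 h. Its log2 fold change at 2 h was 0.61 ± 0.12 SE (adjusted p = 0.0574, limma). SLC25A25 was at 9.40, 8.79 and 7.97 FPKM at 0 h, at 13.2, 11.6 and 10.7 FPKM at 1 h and at 14.2, 12.6 and 11.3 FPKM at 2 h, so the 1 h libraries were already apart from those at 0 h. Its log2 fold change was 0.51 ± 0.15 SE at 2 h (adjusted p = 0.16, limma). Same-numbered libraries of 0 h and 2 h lay off their group means in the same direction, and both carriers passed 0.05 at 2 h with the block, as given above.

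The early difference of SLC25A25 lay on one of its start sites, seen after the values were known and not tested at 1 h or 2 h. ENST00000373068 was at 5.64, 6.47 and 6.21 FPKM at 0 h, at 8.44, 9.26 and 8.77 FPKM at 1 h, at 11.1, 9.82 and 9.29 FPKM at 2 h and at 12.5, 10.0 and 8.17 FPKM at 24 h. ENST00000373064, which starts further along the gene, was at 2.50, 2.16 and 1.15 FPKM at 0 h and at 0.620, 0.150 and 0.374 FPKM at 24 h. The share of ENST00000373068 in the 2 transcripts thus went from 76.2% ± 7.61 at 0 h to 96.5% ± 1.78 at 24 h, and the change in usage passed the test (adjusted p = 0.0074, limma). The 250 bases before each start are shown because the 2 forms begin at different sites, with the same letters in capitals.
SLC25A25 before ENST00000373068 (chr9:130830230-130830479, plus strand): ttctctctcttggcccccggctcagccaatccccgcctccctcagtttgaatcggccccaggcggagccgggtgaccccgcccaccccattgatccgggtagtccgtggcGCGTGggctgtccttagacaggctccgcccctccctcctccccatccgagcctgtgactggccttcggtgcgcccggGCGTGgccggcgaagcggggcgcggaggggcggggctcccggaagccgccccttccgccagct
SLC25A25 before ENST00000373064 (chr9:130860333-130860582, plus strand): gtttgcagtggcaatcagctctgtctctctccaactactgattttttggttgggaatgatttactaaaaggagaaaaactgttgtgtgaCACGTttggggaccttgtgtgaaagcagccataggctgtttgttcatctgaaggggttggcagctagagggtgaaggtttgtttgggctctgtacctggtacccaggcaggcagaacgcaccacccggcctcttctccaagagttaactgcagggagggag
The letters stood 140 and 63 bases before the start that gained and 161 bases before the start that lost, so both windows held them.

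**Figure D4:**
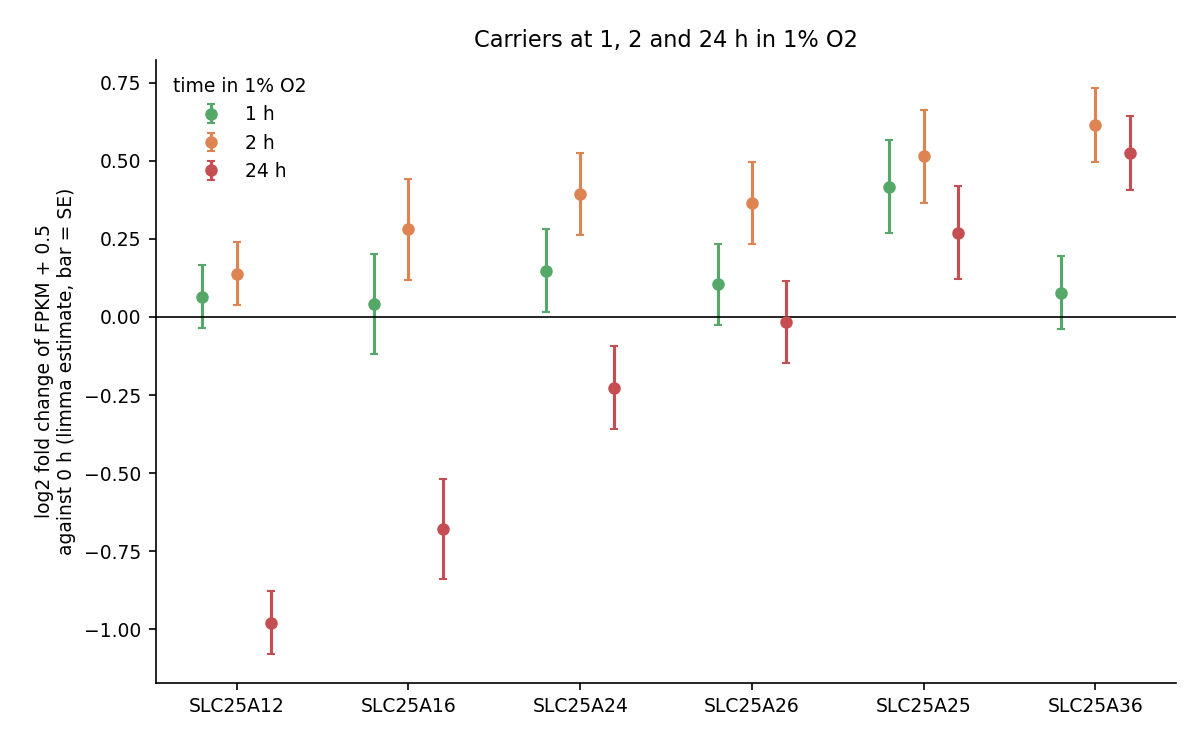
log2 fold change of FPKM + 0.5 against 0 h at 1, 2 and 24 h for 6 carriers (limma estimate over 3 libraries a group, bars are standard errors). SLC25A12, SLC25A16 and SLC25A24 lie above 0 at 2 h and below 0 at 24 h, SLC25A26 lies above 0 at 2 h and within its standard error of 0 at 24 h, and SLC25A25 and SLC25A36 lie above 0 at both.

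Several carriers had estimates above 0 at 2 h and below 0 at 24 h, so 24 h was also set against 2 h in the same fit, a contrast added after the values were seen. In it 18 carriers (43.9%) were lower, beside 27.4% of all names, and 8 (19.5%) were higher, beside 23.2% of all names, at an adjusted p under 0.05. SLC25A24 was at 15.2, 15.9 and 16.5 FPKM at 0 h, at 22.0, 19.0 and 22.1 FPKM at 2 h and at 10.99, 14.0 and 15.9 FPKM at 24 h. Its 2 h libraries were the higher ones of the 3 times, and 24 h differed from 2 h by -0.62 ± 0.13 SE on the log2 scale, given as a description since it was picked for this course on the same libraries.

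The share of each transcript among those of its gene past the filter was tested over 57084 transcripts, of which 196 belonged to 37 carriers with at least 2 of them. In the carriers 10 transcripts gained (5.1%, beside 5.6% of all) and 7 lost share (3.57%, beside 5.55% of all) at an adjusted p under 0.05, so the carriers' shares were close to those of all transcripts. The 17 lay in 10 carriers, among them SLC25A3, SLC25A11, SLC25A13, SLC25A14, SLC25A22, SLC25A25, SLC25A28, SLC25A42 and SLC25A44. The count of 17 depended on the pseudocount, the filter and the libraries used, as given in the last section.

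The fall of SLC25A13 was a fall of its main form. ENST00000265631, the reference coding transcript of 3136 bases, was at 5.21, 5.13 and 6.68 FPKM at 0 h and at 0.0147, 0.1 and 0.26 FPKM at 24 h, and its share of the summed FPKM fell from 65.4% ± 7.20 to 4.83% ± 4.30 (adjusted p = 0.00209, limma). A class j form of 3096 bases nearest to ENST00000416240 was at 0.00335, 0 and 0.45 FPKM at 0 h and at 1.04, 0.786 and 1.00 FPKM at 24 h, and its share went from 1.64% ± 2.81 to 41.2% ± 10.6 (adjusted p = 0.000434, limma). In SLC25A44, ENST00000359511 fell from 68.6% ± 7.31 to 42.4% ± 12.2 of the summed FPKM (adjusted p = 0.00488, limma), and a class j form of 3785 bases gained, from 3.47% ± 6.02 to 26.9% ± 4.40. Forms so alike in length can be hard to tell apart from short reads.

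Noncoding forms gained in some carriers and lost in others. SLC25A14, whose summed FPKM did not pass the test, moved to ENST00000495156, a form of 608 bases without a defined coding sequence, with 3.67% ± 3.24 of its summed FPKM at 0 h and 25.2% ± 6.22 at 24 h (adjusted p = 0.00471, limma). In SLC25A11 a retained-intron form, ENST00000570543, gained from 0.152% ± 0.264 to 2.84% ± 1.55 (adjusted p = 0.023, limma), while all retained-intron forms of SLC25A11 together held 1.49% to 3.55% of its FPKM at 0 h and 2.01% to 6.87% at 24 h, ranges that overlap. In SLC25A42 a retained-intron form, ENST00000600251, fell from 41.8% ± 15.6 to 11.2% ± 5.56 (adjusted p = 0.034, limma). A second retained-intron form of SLC25A42, ENST00000596819, was at 0.149 ± 0.0935 FPKM at 0 h and 1.14 ± 0.0518 FPKM at 24 h, with a change in usage that did not pass (adjusted p = 0.112, limma), and all retained-intron forms together held 47.4% ± 16.7 and 37.6% ± 4.86 of the FPKM of SLC25A42. The share of FPKM on forms typed as noncoding was higher at 24 h in 26 of the 41 carriers, lower in 12 and at no change in 3, with a median change of 1.52 percentage points, given as a description without a test. The same count was not made over all names, so it cannot show anything particular to the carriers.

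**Figure D5:**
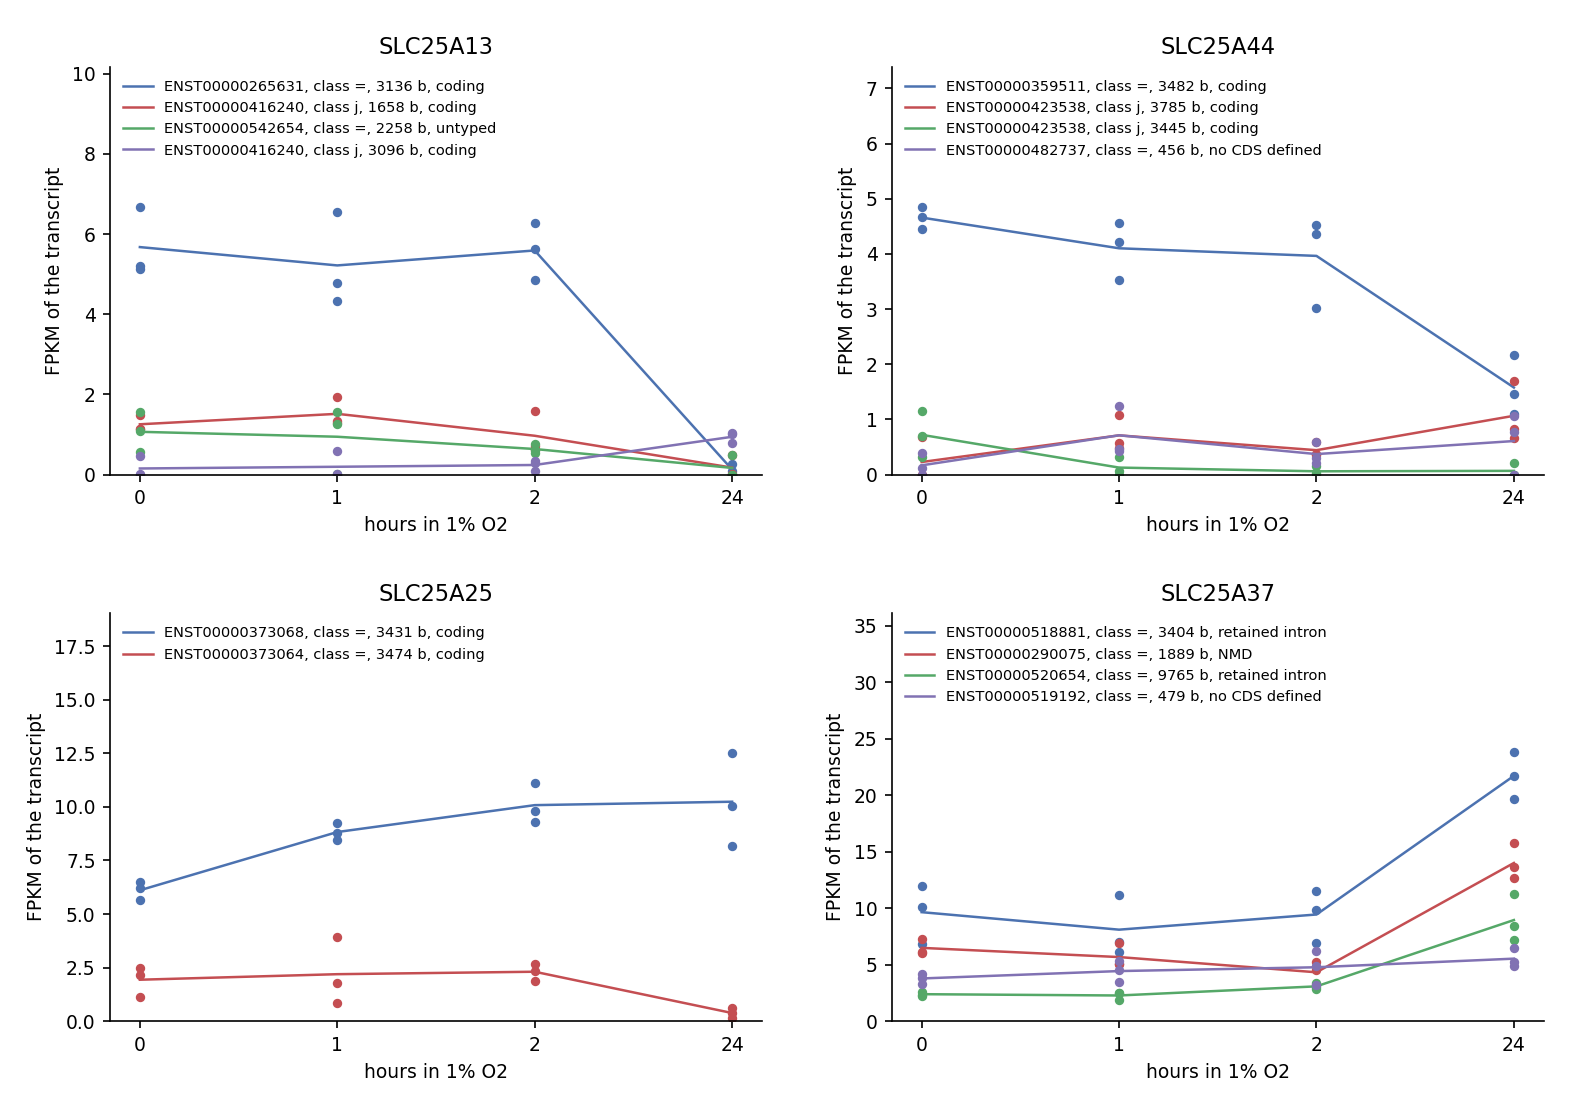
FPKM of the most abundant transcripts of SLC25A13, SLC25A44, SLC25A25 and SLC25A37 (up to 4 each) at 0, 1, 2 and 24 h in 1% O2, with dots for libraries and lines through the means of 3; times are evenly spaced. The main forms of SLC25A13 and SLC25A44 drop at 24 h, the SLC25A25 form ENST00000373068 is higher from 1 h on, and the SLC25A37 forms that rise are typed as retained intron or nonsense-mediated decay (NMD).

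A list of 24 other transporters and channels of the mitochondrial membranes included the SLC25 family members UCP1, UCP2, UCP3, MTCH1 and MTCH2. Of the 22 tested, 11 fell and 3 rose at 24 h, with a median log2 fold change of -0.40, 5 called lower and 1 called higher. Among these MPC1, a subunit of the pyruvate carrier, went from 18.5 ± 1.31 to 8.60 ± 2.65 FPKM and fell (log2 fold change -1.11 ± 0.19 SE), as did VDAC3 (-0.79 ± 0.09 SE), a channel of the outer membrane. VDAC1, the main such channel, was at 201 ± 2.78 and 197 ± 17.4 FPKM and did not pass (adjusted p = 0.744, limma). Of 82 tested genes of the respiratory chain and ATP synthase, 40 fell and 5 rose, with a median of -0.31 and 1 called lower. Of 76 mitochondrial ribosomal protein genes, 62 fell and 0 rose, with a median of -0.84 and 24 called lower. Over all names 30.3% fell, 25% rose, 9.51% were called lower and 8.76% called higher, with a median of -0.05. These lists stand side by side with the carriers' 20 that fell, 10 that rose, 7 called lower, 2 called higher and median of -0.29. No test compared them.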

How the data were processed

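The authors deposited one FPKM value per transcript and library, beside its gene name, nearest reference, class code, length and locus. According to the methods, reads were aligned to hg19 with MapSplice, transcripts were assembled with Cufflinks and merged with Ensembl release 74, and FPKM was estimated on the merged models; the labels also name CASAVA 1.8.2. No column held the authors' own comparisons, and 0 columns of per-sample values were left unused. FPKM over transcripts of class = or j was summed per gene name, without rescaling. Names with a summed FPKM above 0.5 in at least 3 libraries were fitted with limma 3.58.1 (lmFit, eBayes with trend) in R 4.3.3 on log2(FPKM + 0.5), with the 4 times as groups and no covariate, and p-values, all two-sided, were adjusted by Benjamini-Hochberg over all names. Usage was fitted likewise on the log2 ratio of a transcript to the other filtered transcripts of its gene. Transcript types came from GENCODE 44 lifted to GRCh37, by transcript identifier, for 481 of 558 transcripts; the other annotated forms are untyped. Fits were tested on simulated data. Tables and figures used Python 3.11.15, pandas 2.3.3, numpy 2.4.6 and matplotlib 3.10.9.

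Values were given for every called carrier except 1, which is not reported here by itself and stays in the counts and sums, 12 further carriers past an adjusted p of 0.05 in order of fold change, and the 5 highest at 0 h; others are named with fewer values, or were chosen after their values were seen. The members, substrate groups and lists were chosen with earlier results of these data known. Alternatives were another pseudocount, filter, transcript set, scaling or sample set, a replicate block, and each library left out. Same-numbered libraries at 0 h and 2 h deviated together (correlation over names 0.129 to 0.362 in 3 pairs), at 0 h and 24 h less (-0.000785 to 0.242); the pairing rests on the labels' replicate numbers, whose meaning is not given in the sources used here. P-values measure the spread between these libraries.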

Additional observations from a re-analysis of the deposited data

Results flagged for a closer look

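In 4 carriers the 2 h libraries lay apart from those at 0 h, and the estimate at 24 h was below 0 where that at 2 h was above it, with an adjusted p under 0.05 for the difference between 24 h and 2 h. SLC25A5 had the same course without passing that limit (0.06 at 2 h and -0.14 at 24 h). Of all names, 12.2% had 2 h libraries above those at 0 h, and 27.4% were lower at 24 h than at 2 h. The share of all names with the whole course was not counted. The 4 were picked for this course on the same libraries, a choice that favours high values at 2 h, so the differences between 24 h and 2 h are given as a description, without p-values. SLC25A12 stood at a log2 fold change of 0.14 at 2 h and -0.98 at 24 h, a difference of -1.12 ± 0.10 SE. For SLC25A16 the values were 0.28 and -0.68, a difference of -0.96 ± 0.16 SE. For SLC25A24 they were 0.39 and -0.23, a difference of -0.62 ± 0.13 SE, and for SLC25A26 0.37 and -0.02, a difference of -0.38 ± 0.13 SE. SLC25A24 and SLC25A26 did not pass the test of 24 h against 0 h, and the 24 h estimate of SLC25A26 changed sign between alternative settings (-0.10 to 0.06). Groups of 3 libraries were too small for a test of single outlying libraries.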

How the results depend on the processing

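The total counts of called carriers at 1, 2 and 24 h stayed within 1.5 times of the values above under each alternative run, with 9 to 11 called at 24 h, while those called higher, 2 above, were 1 over transcripts of class = alone, with equal sums and without replicate 2 of 0 h. Carriers past an adjusted p of 0.05 at 2 h, 0 above, were 1 over transcripts of at least 300 bases and 2 with the replicate block. With that block, 12 rose and 20 fell at 24 h, as SLC25A1 (adjusted p = 0.0224) and SLC25A25 (0.0281) passed; it changed no other count of called carriers at 24 h, none at 1 h, and left 16 transcripts with changed usage. The 17 carrier transcripts with changed usage were 36 with a pseudocount of 1, 8 with a filter of FPKM above 1, and 10 to 17 with 1 library left out (10 without replicate 1 and 11 without replicate 2 of 0 h). Of the 30 carriers past an adjusted p of 0.05 at 24 h, 23 passed in all 17 alternatives and 0 changed sign. The other 7 were SLC25A3 (15 of 17), SLC25A33 (16 of 17) and the 5 given with their counts above. Of 11 that did not pass, 6 changed sign in some alternative (SLC25A14, SLC25A26, SLC25A30, SLC25A35, SLC25A48 and SLC25A53). Over the 24 carriers chosen for full values, at 1, 2 and 24 h together, 1202 values stayed on their side of the 2-fold call, 16 gained it and 6 lost it. All gains and losses were at 24 h, so the 1202 include every value at 1 h and 2 h. Besides the losses given above, SLC25A12, SLC25A17, SLC25A4 and SLC25A44 were called in some alternatives. The cause was not tested. Over all names the share of higher among called was 48.0%, 54.4% with median-of-ratios scaling and 41.7% with equal sums. The FPKM values carry no read counts, which limits the statements on carriers under 2 FPKM.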
